A study of Homo sapiens with 10 samples.

Results

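The mRNAs of 9 genes that the p53 protein switches on directly (CDKN1A, MDM2, GDF15, TP53I3, ZMAT3, RRM2B, SESN1, FDXR and FAS) were followed in BEAS2B cells transfected with miRNA mimics or an inhibitor. The members were chosen by symbol among the 52402 gene symbols of the count files, and each had 1 row in every file. BEAS2B is a human bronchial epithelial line transformed with SV40, whose large T antigen binds p53, and all libraries came from this 1 line. All cells received Lipofectamine 2000 and were harvested 48 h later, and each of the 5 groups had 2 libraries. A control miRNA (miRcontrol), a mimic of miR-3124-5p, a mimic of miR-200b-3p or an inhibitor of miR-92b was given alone at 50 nM. The fifth group, the 3-miRNA mixed group, received both mimics and the inhibitor together, at amounts not stated in the sources used here. The labels do not give the arm of miR-92b that the inhibitor was designed against, whereas the study's own miRNA is miR-92b-5p. Whether the 2 libraries of a group came from separate transfections is not stated either, so the p-values measure the spread between these libraries, which may be technical.

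The p53 protein is a transcription factor that is kept at a low level by the ubiquitin ligase MDM2 and accumulates after DNA damage or other stress. It binds response elements near its target genes, which halt the cell cycle, aid DNA repair, alter metabolism or start cell death. MDM2 is itself a target, which closes a feedback loop. In airway epithelium the pathway is known as a brake on damaged cells, and it is lost in most small cell lung cancers.

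The miRNAs are shown because their seed (bases 2 to 8, in capitals) sets which 3′UTRs they can pair with. The sequences are the mature miRNAs of RefSeq on GRCh38.p14, and all of their genes lie on the + strand of chromosome 1. The 4 seeds differ from each other.
hsa-miR-3124-5p (chr1:248826383-248826403): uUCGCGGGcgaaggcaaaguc
hsa-miR-200b-3p (chr1:1167160-1167181): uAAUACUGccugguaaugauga
hsa-miR-92b-5p (chr1:155195196-155195217): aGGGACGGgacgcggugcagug
hsa-miR-92b-3p (chr1:155195237-155195258): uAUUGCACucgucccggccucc

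The 3′UTRs of the 9 genes (GENCODE v29, the transcript with the longest coding sequence) were searched on the transcribed strand for the 7 bases that pair with each seed. The miR-3124-5p site CCCGCGA and the miR-92b-5p site CCGTCCC were in none of the 9. Over 12259 genes with a 3′UTR, these sites were found in 0.498% and 3.60%. The miR-200b-3p site CAGTATT, found in 17.1% of these 3′UTRs, occurred 2 times each in SESN1 and ZMAT3. The miR-92b-3p site GTGCAAT, found in 10.99%, occurred 5 times in MDM2, whose 3′UTR of 10837 bases is the longest of the 9. The SESN1 and ZMAT3 sites are printed with their flanks, with the bases that pair with the miR-200b-3p seed in capitals, since these genes differed in their response to this mimic. A single annotated transcript per gene was searched. For RRM2B its 3′UTR had 388 bases, while the union of the gene's exons has 5548, so any longer 3′UTR of this gene was not searched. A match is a description of the sequence and no evidence of pairing in the cell.
SESN1, bases 224 to 230 of 1107: gctgccattcaCAGTATTttgctttttgac
SESN1, bases 1060 to 1066 of 1107: ttgaagtctgtCAGTATTactggtattttt
ZMAT3, bases 1709 to 1715 of 7794: gataattatatCAGTATTattatttttgtt
ZMAT3, bases 3140 to 3146 of 7794: ttgttaccttgCAGTATTcttctctgttcc

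Promoters were scanned on both strands for the p53 response element, taken as 2 adjoining half-sites of 10 bases each with at most 2 mismatches over the 20 bases. The RefSeq windows run from 250 bases before to 50 bases after each start. Of all 35116 windows, 228 held a match (0.649%). The table held 17 windows for 8 of the 9 genes and none for RRM2B. Of these windows 3 held a match, and matches were found for FAS and MDM2 alone. The matched MDM2 windows overlap and share their site. Both sites are on the + strand of GRCh38.p14, with the 20 bases in capitals and 10 flanking bases on each side. They start at -122 and -94 relative to a listed transcription start. Both lie inside the gene spans of GENCODE v29 given below, downstream of the first annotated base of the gene. A window without a match says only that these letters are not in it.
FAS, chr10:88991309-88991328: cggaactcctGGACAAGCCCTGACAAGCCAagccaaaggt
MDM2, chr12:68808923-68808942: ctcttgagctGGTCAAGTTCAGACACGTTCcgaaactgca

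Library totals ranged from 13587666 to 18503890 counts, 14884 genes passed the filter on low counts, and all 9 members were among them. Levels are CPM, read counts per 1000000 counts of the library after scaling by size factors. The keratins KRT7, KRT8 and KRT18 were at 600.6 CPM or higher in every library, while CDH1 and EPCAM, which define most epithelia, were at 0.146 and 0.289 CPM in the controls, and KRT5 had 9 counts at most. With the miR-200b mimic CDH1 was at 9.03 to 10.9 CPM and EPCAM at 10.1 to 10.2. In the mixture CDH1 was at 1.94 to 2.54 CPM and EPCAM at 5.27 to 5.70. The 7 epithelial markers summed to 2220 to 2268 CPM in the controls, 2774 to 2781 with the miR-3124 mimic, 4188 to 4270 with the miR-200b mimic, 2098 to 2188 with the inhibitor and 4081 to 4109 in the mixture. The 5 mesenchymal markers summed to 7388 to 7410 CPM in the controls, 4464 to 4589 with the miR-3124 mimic, 4643 to 4698 with the miR-200b mimic, 6904 to 7047 with the inhibitor and 4998 to 5019 in the mixture. These sums follow their most abundant genes, VIM and FN1 (control means 3800.4 and 3264.4 CPM) and KRT7, KRT8 and KRT18. Single markers can differ from the sums. With the inhibitor VIM was at 4231.5 to 4246.9 CPM, against 3707.0 to 3893.7 in the controls. Over the 10 libraries COL1A1 ranged from 6.2436 to 36.877 CPM (control mean 11.988) and KRT19 from 0.61462 to 15.073 (control mean 8.2047). Of the blood markers, HBB was at 0 in every library and PTPRC had 2 counts at most. The endothelial cadherin CDH5 reached 2.49 and 4.03 CPM in the miR-3124 mimic libraries and stayed at 0.538 or below elsewhere. What part these marker levels have in the changes below was not tested, and in bulk RNA a change in the mix of cells cannot be told apart from a change per cell.

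All 9 genes were compared with the controls by edgeR's quasi-likelihood test, two-sided, in 1 fit over the 10 libraries. Adjusted p-values are Benjamini-Hochberg values over all 14884 genes, and a gene was called when the value was under 0.05. With the miR-3124 mimic, 4 members rose and 3 fell, against 25.7% of all genes called higher and 25.3% called lower. With the miR-200b mimic, 3 rose and 3 fell, against 21.4% and 19.1%. With the miR-92b inhibitor, none rose and 6 fell, against 17.5% and 18.2%, and 3 were called with DESeq2, without miRcontrol replicate 1 or without miR-92b inhibitor replicate 2. In the 3-miRNA mixed group, 1 rose and 5 fell, against 21.5% and 21.1%. No member was past a 2-fold change in any of these 4 comparisons with the controls, while 8.13%, 4.88%, 1.91% and 4.67% of all genes were called with such a change. The 4 comparisons share the same control libraries.

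The median log2 fold change of the 9 members was 0.16 with the miR-3124 mimic, 0.03 with the miR-200b mimic, -0.28 with the inhibitor and -0.42 in the mixture. Over all genes tested it lay between -0.006113 and 0.003887, where the scaling by size factors holds it near 0. Without regard to sign, the median log2 fold change of the members was 0.35, 0.30, 0.28 and 0.43 in the same order. Over all genes it was 0.29, 0.23, 0.20 and 0.23. Of the 36 tests of members against the controls, 25 gave a call, 8 higher and 17 lower. These tests share their control libraries, and 35.7% to 51.0% of all genes were called in the same comparisons. FDXR was called in 4 comparisons, FAS in 0 and the other members in 3 each. The 9 genes thus did not move as 1 block, and the directions of single members are given below.

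**Figure D1:**
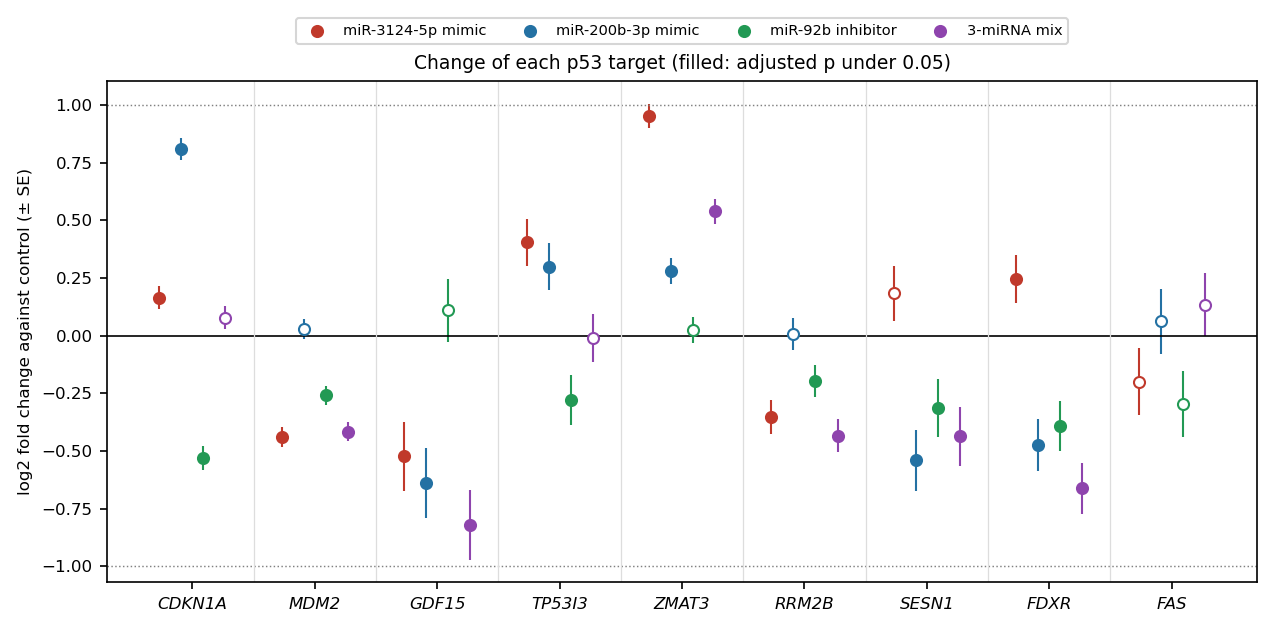
Log2 fold change of each member against the control libraries (y axis, points with ± SE from the edgeR fit) in the 4 comparisons; filled points had an adjusted p under 0.05 and dotted lines mark a 2-fold change. ZMAT3 with the miR-3124 mimic (0.95) and CDKN1A with the miR-200b mimic (0.81) were the highest points, GDF15 in the mixture (-0.82) the lowest.

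Positions below are those of GENCODE v29 on GRCh38. CDKN1A encodes p21, the inhibitor of cyclin-dependent kinases through which p53 stops the cell cycle (chr6:36676460-36687339, + strand). Its level was 95.5 and 94.8 CPM in the 2 control libraries, 104 and 109 with the miR-3124 mimic, 159 and 174 with the miR-200b mimic, 64.7 and 67.2 with the miR-92b inhibitor, and 97.9 and 103 in the mixture. Both miR-200b libraries lay above every other library and both inhibitor libraries below. CDKN1A rose 1.75-fold with the miR-200b mimic (log2 0.81 ± 0.05 SE, adjusted p = 4.03e-19). It fell by 0.53 on the log2 scale with the inhibitor (SE 0.05, adjusted p = 3.04e-11). The miR-3124 mimic gave a rise of 0.16 (adjusted p = 0.00521), which lost its call without miR-3124 mimic replicate 2 (0.12, adjusted p = 0.114). In the mixture the log2 difference was 0.08 (95% interval -0.02 to 0.18, adjusted p = 0.222).

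MDM2, the ubiquitin ligase that targets p53 for degradation (chr12:68808176-68850686, + strand), followed another order. The controls had 155 and 156 CPM and the miR-200b mimic libraries 162 and 156, and these groups overlapped. The other libraries were all lower, with 114 and 115 CPM with the miR-3124 mimic, 129 and 131 with the inhibitor, and 115 and 118 in the mixture. MDM2 fell by 0.44 on the log2 scale with the miR-3124 mimic (SE 0.04, adjusted p = 4.05e-12), by 0.26 with the inhibitor (SE 0.04, adjusted p = 2.82e-06) and by 0.42 in the mixture (SE 0.04, adjusted p = 2.33e-11). With the miR-200b mimic the difference was 0.03 (95% interval -0.06 to 0.11, adjusted p = 0.634). In the 1 annotated transcript searched, the 3′UTR of MDM2 held no site for either mimic and 5 matches for miR-92b-3p. Whether pairing has a part in any of these values was not tested.

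The count ratio of CDKN1A to MDM2 within a library puts both genes together. It was 0.616 and 0.607 in the controls, 0.912 and 0.946 with the miR-3124 mimic, 0.982 and 1.11 with the miR-200b mimic, 0.5005 and 0.513 with the inhibitor, and 0.849 and 0.870 in the mixture. The libraries of the 5 groups did not overlap in this ratio. Since the genes differ in length, the ratio compares libraries and not the levels of the genes.

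ZMAT3, a zinc finger protein that binds RNA and regulates splicing and mRNA stability (chr3:179017223-179072279, - strand), showed the largest rise of the 9 genes against the controls. The controls had 58.6 and 55.4 CPM and the inhibitor libraries 59.4 and 56.8, and these overlapped. The level was 111 and 110 CPM with the miR-3124 mimic, 69.1 and 69.4 with the miR-200b mimic, and 84.6 and 81.1 in the mixture, all above the controls. ZMAT3 rose 1.94-fold with the miR-3124 mimic (log2 0.95 ± 0.05 SE, adjusted p = 1.25e-20), 1.21-fold with the miR-200b mimic (0.28 ± 0.06, adjusted p = 5.28e-05) and 1.45-fold in the mixture (0.54 ± 0.05, adjusted p = 8.89e-12). The value for the inhibitor was 0.03 (95% interval -0.09 to 0.14, adjusted p = 0.769). The 2 seed matches printed above are in 1 annotated transcript, while the counts are per gene, so which 3′UTR the counted mRNA carried was not measured.

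RRM2B encodes the p53-inducible small subunit of ribonucleotide reductase, which supplies deoxynucleotides for DNA repair (chr8:102204502-102239118, - strand). It had 46.8 and 43.2 CPM in the controls, 36.4 and 34.2 with the miR-3124 mimic, 46.3 and 44.4 with the miR-200b mimic, 40.4 and 38.2 with the inhibitor, and 30.9 and 35.7 in the mixture. Only the miR-200b mimic libraries overlapped the controls. RRM2B fell by 0.35 on the log2 scale with the miR-3124 mimic (SE 0.07, adjusted p = 5.65e-05) and by 0.43 in the mixture (SE 0.07, adjusted p = 1.98e-06). The fall of 0.20 with the inhibitor (adjusted p = 0.0245) was lost with DESeq2 (adjusted p = 0.108), without miRcontrol replicate 1 (0.273) and without miR-92b inhibitor replicate 2 (0.216). With the miR-200b mimic the value was 0.01 (95% interval -0.13 to 0.15).

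**Figure D2:**
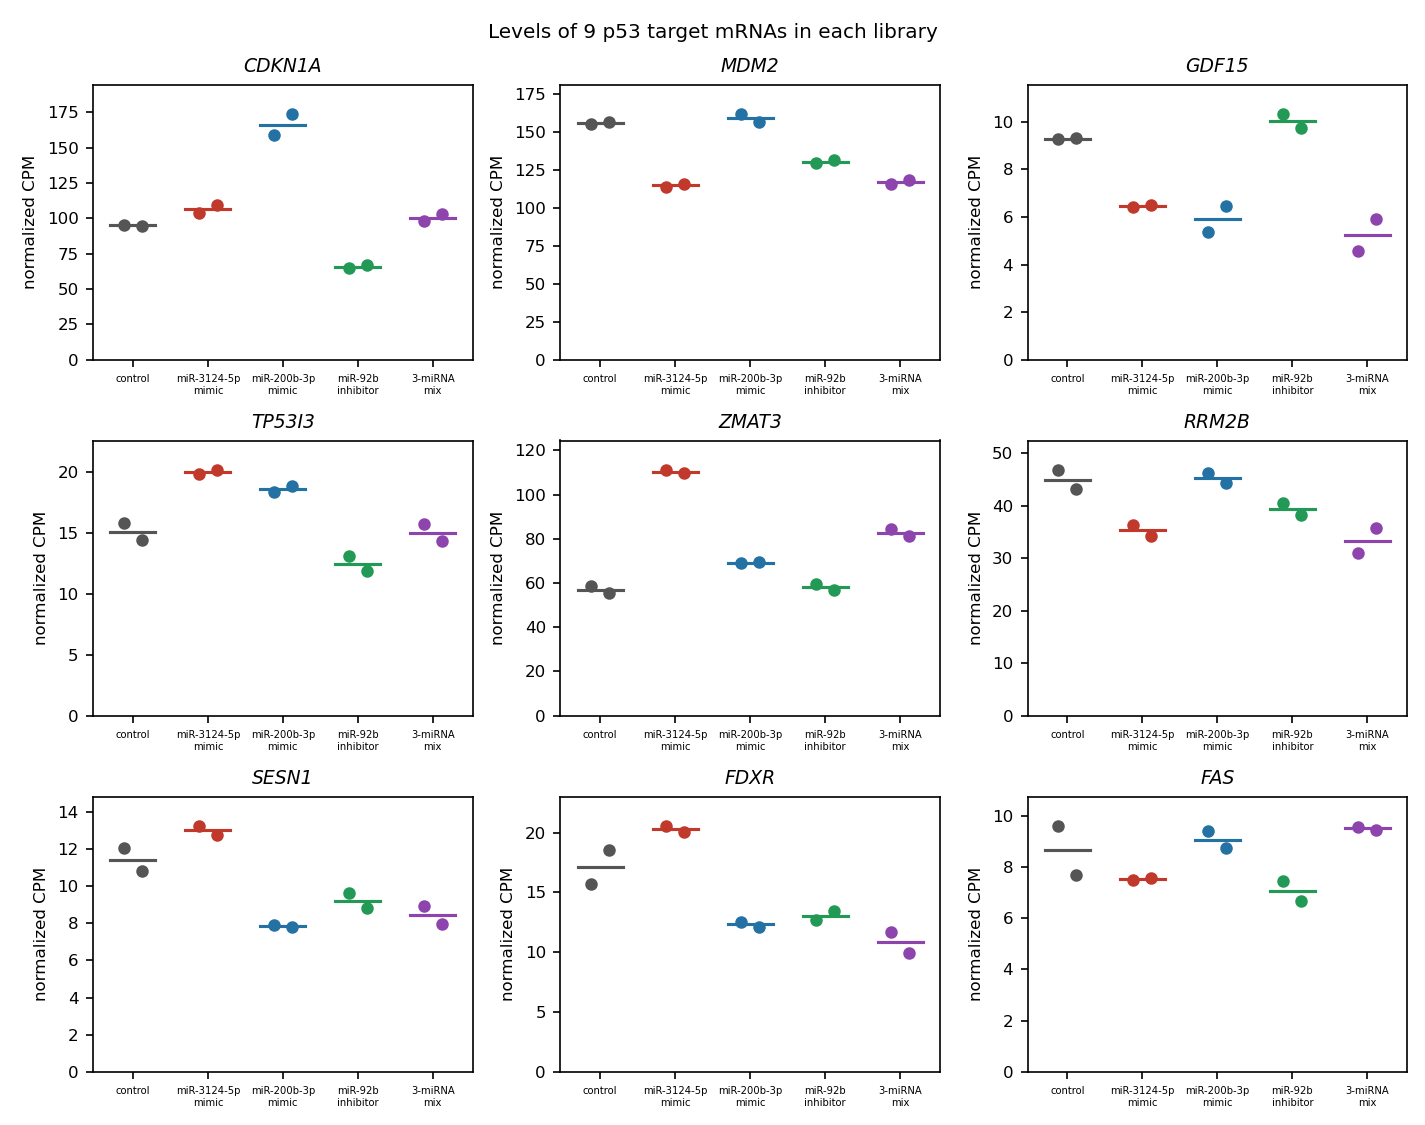
Normalized CPM of the 9 members (y axes from 0, a scale for each gene) in each of the 10 libraries, by group; points are libraries and bars the mean of 2. CDKN1A was highest with the miR-200b mimic and lowest with the inhibitor, and ZMAT3 was highest with the miR-3124 mimic, whereas the FAS libraries lay between 6.68 and 9.62 CPM in all groups.

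Of the members with metabolic roles, SESN1 encodes sestrin 1, which restrains mTORC1 signalling and oxidative stress (chr6:108986437-109094819, - strand). The controls had 12.1 and 10.8 CPM, the miR-3124 mimic libraries 13.2 and 12.8, the miR-200b mimic libraries 7.93 and 7.82, the inhibitor libraries 9.63 and 8.81, and the mixture 8.96 and 7.96. The level was above the controls in the miR-3124 mimic libraries and below them in the other transfected libraries. SESN1 fell by 0.54 on the log2 scale with the miR-200b mimic (SE 0.13, adjusted p = 0.000783), the lowest level of the 5 groups. In the mixture it fell by 0.44 (SE 0.13, adjusted p = 0.00397), a call lost without miRcontrol replicate 1 (-0.35, adjusted p = 0.0749) and without 3-miRNA mixture replicate 2 (-0.36, adjusted p = 0.0676). The fall of 0.31 with the inhibitor (adjusted p = 0.0455) was lost in 8 of 18 alternatives, with TMM normalization (adjusted p = 0.0528), library totals (0.0519), DESeq2 (0.172), only the compared groups (0.05015) or no low-count filter (0.0950), and in the fits without miRcontrol replicate 1 (0.297) or without miR-92b inhibitor replicate 1 (0.0621) or 2 (0.255). The value for the miR-3124 mimic was 0.18 (95% interval -0.06 to 0.43, adjusted p = 0.208).

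Both SESN1 and ZMAT3 hold 2 miR-200b-3p seed matches, and with the miR-200b mimic SESN1 fell to 0.688 of its control level while ZMAT3 rose. Whether the matches have a part in either value was not tested.

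FDXR, the ferredoxin reductase of mitochondria (chr17:74862497-74873031, - strand), was called in all 4 comparisons, with a rise in 1 and a fall in 3. Its level was 15.7 and 18.6 CPM in the controls, 20.6 and 20.03 with the miR-3124 mimic, 12.6 and 12.1 with the miR-200b mimic, 12.7 and 13.4 with the inhibitor, and 11.7 and 9.90 in the mixture. The control libraries were farther apart in CPM than those of any other group. FDXR fell by 0.48 on the log2 scale with the miR-200b mimic (SE 0.11, adjusted p = 0.000551) and by 0.66 in the mixture (SE 0.11, adjusted p = 2.96e-06). The fall of 0.39 with the inhibitor (SE 0.11, adjusted p = 0.00371) was lost without miRcontrol replicate 2 (-0.27, adjusted p = 0.140). The rise of 0.25 with the miR-3124 mimic (SE 0.10, adjusted p = 0.0429) was lost in 7 of 18 alternatives, with adjusted p-values of up to 0.450 without miRcontrol replicate 1, where the rise was 0.13. It was also lost with DESeq2 (0.181), without the low-count filter (0.0849), without miR-3124 mimic replicate 1 (0.149) or 2 (0.102), and without miR-200b mimic replicate 1 (0.0503) or 2 (0.0502).

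TP53I3, a quinone oxidoreductase that generates reactive oxygen species (chr2:24077433-24085861, - strand), had 15.8 and 14.4 CPM in the controls, 19.8 and 20.1 with the miR-3124 mimic, 18.3 and 18.8 with the miR-200b mimic, 13.1 and 11.8 with the inhibitor, and 15.7 and 14.3 in the mixture. Both mimic groups were above the controls, the inhibitor was below, and the mixture overlapped them. TP53I3 rose by 0.40 on the log2 scale with the miR-3124 mimic (SE 0.10, adjusted p = 0.000734). The rise of 0.30 with the miR-200b mimic (SE 0.10, adjusted p = 0.0168) was lost with DESeq2 (adjusted p = 0.0916), without miRcontrol replicate 2 (0.157) and without miR-200b mimic replicate 2 (0.0998). The fall of 0.28 with the inhibitor (SE 0.11, adjusted p = 0.0373) was lost with DESeq2 (0.132), without the low-count filter (0.0798), without miRcontrol replicate 1 (0.266) and without miR-92b inhibitor replicate 2 (0.273). In the mixture the value was -0.01 (95% interval -0.22 to 0.20), and its sign changed with TMM normalization.

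Of the members that act outside the cell or at its surface, GDF15 encodes a secreted cytokine of the TGF-β family that is released under stress (chr19:18374731-18389176, + strand). The controls had 9.27 and 9.31 CPM and the inhibitor libraries 10.3 and 9.74. The level was 6.42 and 6.51 CPM with the miR-3124 mimic, 5.38 and 6.44 with the miR-200b mimic, and 4.59 and 5.92 in the mixture, all below the controls. GDF15 fell by 0.52 on the log2 scale with the miR-3124 mimic (SE 0.15, adjusted p = 0.00289), by 0.64 with the miR-200b mimic (SE 0.15, adjusted p = 0.000607) and by 0.82 in the mixture (SE 0.15, adjusted p = 1.40e-05). The fall in the mixture was 1.76-fold, the largest of any member in any comparison with the controls. The value for the inhibitor was 0.11 (95% interval -0.16 to 0.38, adjusted p = 0.576).

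FAS, the death receptor that binds Fas ligand (chr10:88990582-89015785, + strand), was not called in any comparison with the controls. It had 9.62 and 7.70 CPM in the controls, 7.51 and 7.58 with the miR-3124 mimic, 9.42 and 8.74 with the miR-200b mimic, 7.47 and 6.68 with the inhibitor, and 9.57 and 9.47 in the mixture. The log2 values were -0.20 (95% interval -0.49 to 0.09), 0.06 (-0.22 to 0.35), -0.30 (-0.58 to -0.01) and 0.13 (-0.14 to 0.41) in the same order, with adjusted p-values of 0.257, 0.767, 0.107 and 0.460. These intervals leave room for changes of the size measured in other members. An exon of ACTA2 overlaps FAS on the opposite strand, and ACTA2 had 292 counts over the 10 libraries against 1418 for FAS. Whether the counting used strand is not stated, so reads in the shared bases cannot be assigned. For MDM2 the overlapping carboxypeptidase M gene had 1039 counts against 22804, and for TP53I3 the overlapping FAM228B had 136 against 2725. Exons of DINOL overlap CDKN1A, those of AL390208.1 overlap SESN1, and those of AC025423.2 and AC025423.4 overlap MDM2. These genes had no row under those symbols. The pseudogene AC025423.2 lies on the same strand as MDM2, so strand would not separate its reads.

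Set per kilobase of exon, CDKN1A had the highest control level of the 9 genes, 31.2 CPM per kb. MDM2 followed at 11.7, RRM2B at 8.11, TP53I3 at 6.53, ZMAT3 at 5.91, FDXR at 4.76, GDF15 at 4.45, SESN1 at 2.23 and FAS at 2.04. The exon lengths are the union over all transcripts of GENCODE v29, so the order depends on the transcripts these cells use.

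In the order of the 5 groups, ZMAT3 was the most graded gene. Its level with the miR-3124 mimic was above that of the mixture by 0.41 on the log2 scale (adjusted p = 1.04e-09), the mixture above the miR-200b mimic by 0.26 (adjusted p = 8.99e-05), and the miR-200b mimic above the inhibitor by 0.25 (adjusted p = 0.000142). The inhibitor and the control did not differ beyond their spread. Between pairs of transfected groups, 38.6% to 58.8% of all genes were called in either direction. For CDKN1A the miR-200b mimic was above the miR-3124 mimic by 0.64 (adjusted p = 3.50e-16), the next 3 groups (miR-3124 mimic, mixture, control) were neighbours without a call, and the inhibitor lay below the control.

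For MDM2, the miR-200b mimic and the control were neighbours at the top without a call, the inhibitor lay below the control and above the mixture by 0.16 (adjusted p = 0.00302), and the mixture and the miR-3124 mimic at the bottom were not called apart. GDF15 split once, between the control and the miR-3124 mimic. TP53I3 split between the miR-200b mimic and the control and between the mixture and the inhibitor (0.27, adjusted p = 0.0391). For RRM2B and SESN1 the only called step was from the control to the inhibitor. FDXR was highest with the miR-3124 mimic, followed by the control and then the inhibitor, with a call at each step, and the inhibitor, the miR-200b mimic and the mixture at the lower end were not called apart. No neighbouring groups were called apart for FAS. Between groups farther apart, the mixture was called above the inhibitor (0.43, adjusted p = 0.0120) and above the miR-3124 mimic (0.33, adjusted p = 0.04525). The miR-200b mimic was also called above the inhibitor (0.36, adjusted p = 0.0369). Of all genes, 39.6%, 49.1% and 50.5% were called in either direction in the same pairs of groups.

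Between its highest and lowest group mean, CDKN1A spanned 1.33 on the log2 scale, ZMAT3 0.95, GDF15 0.93 and FDXR 0.91, and FAS spanned 0.42. CDKN1A alone spanned at least 1. Over the 10 libraries, the genes whose log2 levels were most like CDKN1A were DHRS1, a short-chain dehydrogenase (Pearson r = 0.986), and PLEKHJ1, a pleckstrin homology domain protein (r = 0.985). DHRS1 had group means of 21.9 CPM in the control, 24.1 with the miR-3124 mimic, 39.5 with the miR-200b mimic, 14.7 with the inhibitor and 25.6 in the mixture. For PLEKHJ1 they were 48.5, 51.2, 80.4, 35.2 and 48.2 CPM in the same order. Among the members, the highest r was 0.93 between MDM2 and RRM2B, followed by 0.90 between SESN1 and FDXR, and the lowest was -0.71 between MDM2 and ZMAT3. These values describe 10 libraries that fall into 5 transfected groups and share their controls, and carry no test.

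The mixture was also set against the sum of the 3 single log2 fold changes, which is the level it would have if the single effects added up. The amounts of each miRNA in the mixture are not known to match those of the single transfections, so this sum is a reference level. Against 11.7% of all genes called higher than the sum and 10.1% called lower, 1 member was higher and 2 were lower, and 1 member was called without miRcontrol replicate 2. ZMAT3 had a sum of 1.26 and a measured value of 0.54, a departure of -0.72 (95% interval -0.94 to -0.50, adjusted p = 1.27e-06), or 82.8 CPM where the sum gives 136. CDKN1A had a sum of 0.44 and a measured value of 0.08, a departure of -0.37 (95% interval -0.57 to -0.16, adjusted p = 0.00535), or 100.3 CPM where the sum gives 129. This call was lost without miRcontrol replicate 2 (-0.35, adjusted p = 0.0507).

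MDM2 was at -0.42 in the mixture where the sum gives -0.67, a departure of 0.26 (95% interval 0.08 to 0.43, adjusted p = 0.0245). This call was lost in 8 of 17 alternatives, with DESeq2 (adjusted p = 0.0599), without the low-count filter (0.0506), and without miRcontrol replicate 1 (0.0932) or 2 (0.122), miR-3124 mimic replicate 1 (0.0572), miR-200b mimic replicate 2 (0.0564), miR-92b inhibitor replicate 1 (0.0594) or mixture replicate 2 (0.0686). For all 3 called members the mixture lay closer to the control than the sum did. The other departures were -0.43 for TP53I3 (95% interval -0.85 to -0.01, adjusted p = 0.142), 0.57 for FAS (-0.003023 to 1.14, adjusted p = 0.160), 0.23 for GDF15 (-0.37 to 0.83), 0.23 for SESN1 (-0.28 to 0.74), 0.11 for RRM2B (-0.18 to 0.39) and -0.04 for FDXR (-0.48 to 0.40).

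**Figure D3:**
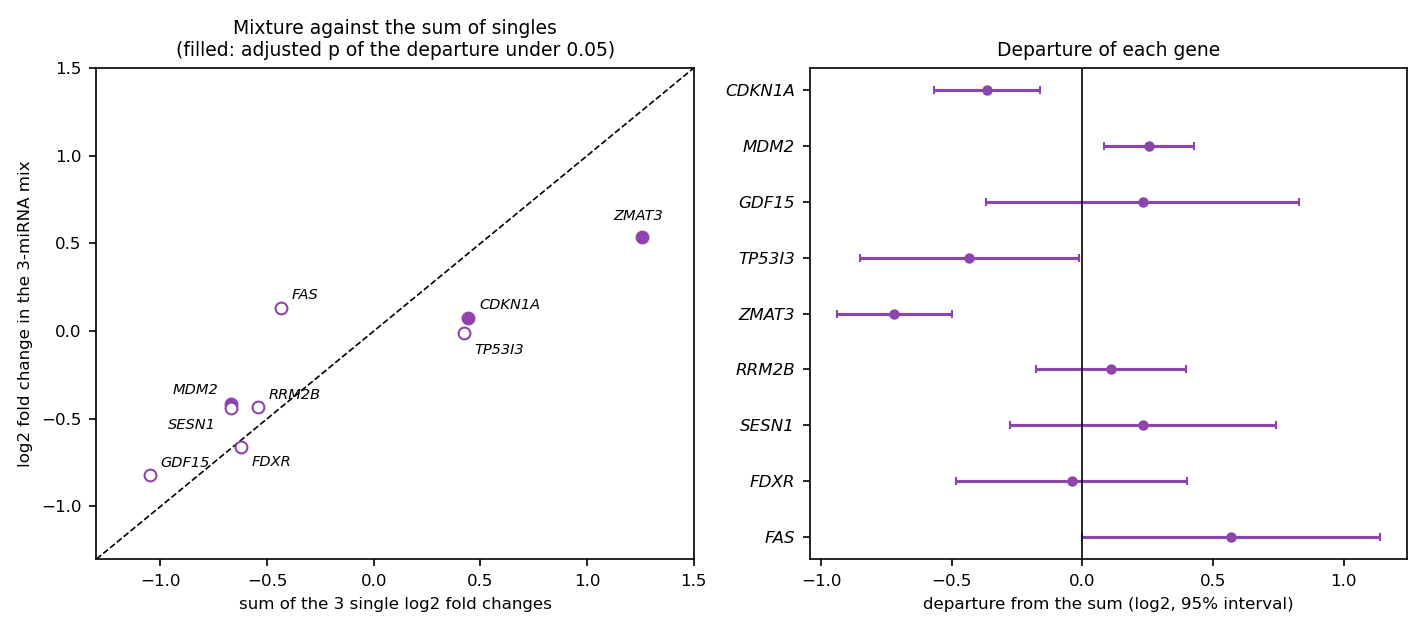
Left, log2 fold change of each member in the 3-miRNA mixture (y axis) against the sum of its 3 single log2 fold changes (x axis), with the line of equality dashed; right, the difference with its 95% interval. ZMAT3 lay 0.72 below the line and CDKN1A 0.37 below, MDM2 lay 0.26 above, and the 6 open points had an adjusted p of 0.05 or more.

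Other p53 targets were counted in 4 lists of 52 genes in all, of which 50 were tested. With the miR-3124 mimic 15 were called higher and 14 lower, with the miR-200b mimic 18 and 18, with the inhibitor 18 and 11, and in the mixture 17 and 15. Their median log2 fold changes were -0.02, 0.01, 0.01 and -0.05. The shares of the 50 called higher and lower were 30% and 28% with the miR-3124 mimic (all genes 25.7% and 25.3%), 36% and 36% with the miR-200b mimic (21.4% and 19.1%), 36% and 22% with the inhibitor (17.5% and 18.2%), and 34% and 30% in the mixture (21.5% and 21.1%). The counts of each list below stand against the same shares of all genes, and with 4 to 16 genes a list they are descriptions.

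Of 14 tested apoptosis targets, 6 rose and 4 fell with the miR-3124 mimic, 6 and 3 with the miR-200b mimic, 7 and 3 with the inhibitor, and 6 and 4 in the mixture, with medians of 0.04, 0.15, 0.25 and -0.02. TNFRSF10D, a decoy receptor for the death ligand TRAIL, had 74.1 and 67.1 CPM in the controls and 181 and 172 with the miR-3124 mimic. It rose by 1.32 there, by 0.64 with the inhibitor and by 1.20 in the mixture. PERP, a desmosomal membrane protein, went from 94.4 and 95.0 CPM to 41.3 and 41.7 with the miR-3124 mimic, a fall of 1.19 (adjusted p = 1.47e-23), and it rose by 0.34 with the miR-200b mimic. With the miR-200b mimic the TRAIL receptor gene TNFRSF10A rose by 0.93 (17.5 and 17.0 CPM to 33.2 and 32.4) and TP53INP1, a regulator of autophagy and cell death, fell by 0.91. TNFRSF10A also rose in the other comparisons (0.30 with the miR-3124 mimic, 0.43 with the inhibitor and 1.11 in the mixture), while TP53INP1 rose by 1.11 with the miR-3124 mimic and fell by 0.28 in the mixture. APAF1, the core of the apoptosome, fell by 0.47 with the inhibitor and rose by 0.19 with the miR-3124 mimic. PMAIP1, which encodes the BH3-only protein NOXA, fell by 0.37 in the mixture, fell by 0.52 with the miR-200b mimic, fell by 0.20 with the miR-3124 mimic and rose by 0.50 with the inhibitor.

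Of 16 targets in cell cycle arrest and feedback, 5 rose and 5 fell with the miR-3124 mimic, 7 and 6 with the miR-200b mimic, 7 and 2 with the inhibitor, and 7 and 3 in the mixture, with medians of -0.004411, -0.07, 0.11 and 0.08. SFN, the 14-3-3 sigma protein that holds cells in G2, had 118 and 112 CPM in the controls and 235 and 225 with the miR-200b mimic, a rise of 0.99 (SE 0.05, adjusted p = 2.19e-22). It fell by 0.56 with the miR-3124 mimic and by 0.36 with the inhibitor, and rose by 0.42 in the mixture. The kinase gene PLK3 rose by 0.83 with the miR-3124 mimic and by 0.89 in the mixture, and also rose with the miR-200b mimic (0.76) and the inhibitor (0.29). The antiproliferative gene BTG1 rose by 0.50 with the inhibitor and by 0.17 in the mixture and fell by 0.19 with the miR-200b mimic. TRIM22, at only 4.81 and 4.24 CPM in the controls, fell by 0.70 with the miR-200b mimic (1.94 and 3.45 CPM). It fell by 0.63 in the mixture (3.15 and 2.69 CPM).

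Of 4 DNA repair targets, 1 rose and 1 fell with the miR-3124 mimic, 1 and 3 with the miR-200b mimic, 0 and 2 with the inhibitor, and 0 and 3 in the mixture, with medians of -0.06, -0.25, -0.19 and -0.19. POLH, the polymerase that copies past ultraviolet lesions, had 78.9 and 77.1 CPM in the controls and 44.8 and 46.8 with the inhibitor, a fall of 0.77 (SE 0.06, adjusted p = 5.23e-15), and it fell by 0.65 in the mixture and fell by 0.21 with the miR-200b mimic. XPC, which finds lesions for nucleotide excision repair, rose by 0.52 with the miR-3124 mimic and fell by 0.34 with the miR-200b mimic. The helicase gene ASCC3 went the other way in both, with a fall of 0.23 and a rise of 0.26, and fell by 0.16 with the inhibitor and by 0.15 in the mixture.

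Of 16 metabolic, autophagy and other targets, 3 rose and 4 fell with the miR-3124 mimic, 4 and 6 with the miR-200b mimic, 4 and 4 with the inhibitor, and 4 and 5 in the mixture, with medians of -0.04, -0.06, -0.04 and -0.17. SERPINB5, the serpin maspin of epithelial cells, had 3.43 and 3.76 CPM in the controls, 22.4 and 20.8 with the miR-200b mimic and 11.4 and 11.4 in the mixture. It rose by 2.58 (adjusted p = 6.22e-20) and 1.67 (adjusted p = 1.70e-12), the largest rises among the named genes of the 7 lists. The epithelial marker sum was also highest in those groups, and its part in the rise was not tested. KITLG, the ligand of the receptor KIT, fell by 1.26 with the miR-3124 mimic and fell by 1.37 in the mixture, and also fell with the miR-200b mimic (-0.78) and the inhibitor (-0.22). The lysosomal fucosidase gene FUCA1 rose by 1.07 with the miR-3124 mimic, by 0.99 with the miR-200b mimic and by 0.62 in the mixture, and fell by 0.42 with the inhibitor. The iron reductase gene STEAP3 fell by 1.26 with the miR-200b mimic, and also fell with the miR-3124 mimic (-0.33) and in the mixture (-0.64). The tetraspanin gene CD82 rose by 0.98 with the inhibitor, by 0.91 with the miR-3124 mimic and by 0.98 in the mixture, and fell by 0.19 with the miR-200b mimic. The receptor gene EDA2R, at only 3.89 and 4.06 CPM in the controls, fell by 0.69 with the inhibitor (1.75 and 3.12 CPM, SE 0.24). It fell by 0.65 with the miR-200b mimic.

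Of 13 tested regulators of p53, 3 rose and 4 fell with the miR-3124 mimic, 2 and 4 with the miR-200b mimic, 3 and 1 with the inhibitor, and 3 and 5 in the mixture, with medians of 0.05, -0.05, 0.04 and -0.11. With the miR-3124 mimic these were 23.1% and 30.8% of the list, near the 25.7% and 25.3% of all genes. PPP1R13L, which encodes the p53 inhibitor iASPP, had 94.1 and 88.2 CPM in the controls, 24.0 and 26.4 with the miR-3124 mimic, 126 and 146 with the miR-200b mimic, and 60.0 and 60.5 with the inhibitor. It fell by 1.85 (adjusted p = 6.05e-27), rose by 0.58 (adjusted p = 1.33e-12) and fell by 0.60 (adjusted p = 2.18e-11), and it fell by 0.39 in the mixture. MDM4, the partner of MDM2 that blocks p53 activity, rose by 0.30 with the miR-3124 mimic, where MDM2 fell, and fell by 0.51 with the miR-200b mimic, where MDM2 was not called. RCHY1, another ubiquitin ligase for p53, rose by 0.29 with the inhibitor, by 0.31 with the miR-200b mimic and by 0.48 in the mixture, and the checkpoint kinase gene CHEK2 fell by 0.62 in the mixture and fell by 0.88 with the miR-3124 mimic.

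The cell cycle genes that p21 is known to repress through the DREAM complex moved one way. Of 12 tested, 12 fell with the miR-3124 mimic, 12 with the miR-200b mimic, 11 with the inhibitor and 12 in the mixture, and none rose, with medians of -0.57, -0.38, -0.28 and -0.63. Of all genes, 25.3%, 19.1%, 18.2% and 21.1% were called lower in these comparisons. The list was chosen with earlier results of these data known, and the comparisons share their control libraries. The counts are therefore descriptions and carry no test of the list. The proliferation marker MKI67 had 1345 and 1360 CPM in the controls, 582 and 565 with the miR-3124 mimic, 810 and 811 with the miR-200b mimic, 866 and 829 with the inhibitor, and 660 and 648 in the mixture. It fell by 1.24, 0.74, 0.67 and 1.05. BUB1, a kinase of the spindle checkpoint, was the gene without a call, at -0.08 with the inhibitor (adjusted p = 0.145). CDKN1A itself had log2 values of 0.16, 0.81, -0.53 and 0.08 in these comparisons, and its part in the fall of the list was not tested.

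The integrated stress response, which can raise some p53 targets without p53, was the last list. Of its 10 genes, 3 rose and 4 fell with the miR-3124 mimic, 5 and 4 with the miR-200b mimic, 5 and 2 with the inhibitor, and 7 and 3 in the mixture, with medians of 0.06, 0.10, 0.33 and 0.55. DDIT3, which encodes the transcription factor CHOP, had 11.6 and 12.5 CPM in the controls and 31.5 and 32.03 with the inhibitor, a rise of 1.40 (adjusted p = 1.71e-15). It rose by 0.71 in the mixture, fell by 0.46 with the miR-200b mimic and fell by 0.29 with the miR-3124 mimic. CHAC1, an enzyme that breaks down glutathione, rose by 1.53 in the mixture (3.55 and 2.98 CPM to 9.79 and 9.09) and by 0.52 to 0.77 in the other comparisons. TRIB3 rose by 0.89 with the miR-200b mimic, by 0.52 with the inhibitor and by 0.75 in the mixture, and fell by 0.46 with the miR-3124 mimic. PHGDH, the first enzyme of serine synthesis, fell by 1.21 with the miR-200b mimic and fell by 0.38 in the mixture, and rose by 0.32 with the miR-3124 mimic. VLDLR rose by 0.66 with the miR-3124 mimic and fell in the other comparisons (-0.57, -0.44 and -0.28). PSAT1, another enzyme of serine synthesis, fell by 0.64 with the miR-3124 mimic, fell by 0.91 with the miR-200b mimic and fell by 0.63 in the mixture. DDIT4 fell by 0.45 with the inhibitor and rose by 0.58 with the miR-200b mimic and by 0.31 in the mixture.

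**Figure D4:**
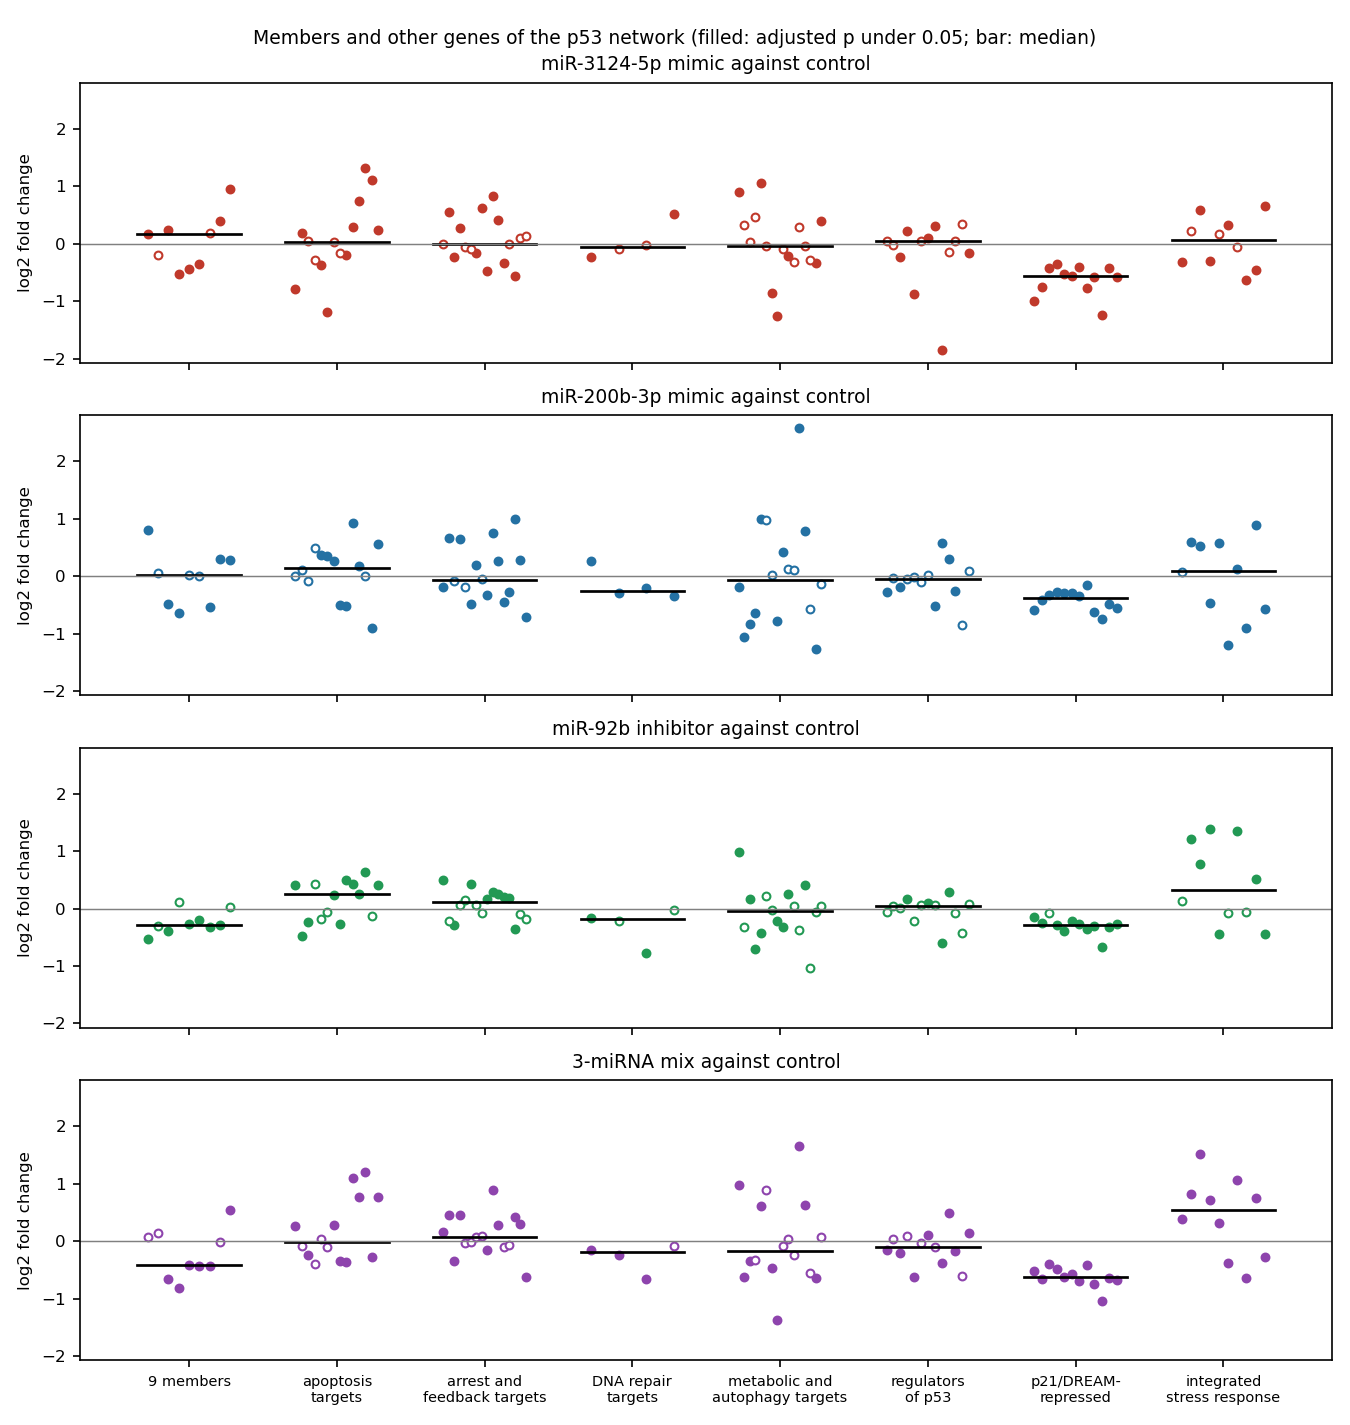
Log2 fold change against the controls (y axis) of the 9 members and of the genes of 7 wider lists, with a panel for each comparison; points are genes, filled where the adjusted p was under 0.05, and bars are medians. The p21/DREAM list lay below 0 in all panels, with medians from -0.63 to -0.28, while the target lists held genes on both sides of 0.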

How the data were processed

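BEAS2B cells in 5 groups of 2 libraries were measured by mRNA-sequencing (poly(A) selection, NEBNext Ultra II Directional). The authors trimmed the reads and mapped them with TopHat to GRCh38, per the labels, and deposited raw read counts per gene. The annotation, the counting tool and its use of strand are not given in the sources used here. The files hold 58173 rows each. Symbols repeated in 5771 of them were summed.

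R 4.3.3 was used with edgeR 4.0.16 (and limma 3.58.1): filterByExpr, RLE size factors (0.985 to 1.016), then 1 quasi-likelihood fit of the 10 libraries with group as its only term. The fit was also run on simulated counts, drawn with the spread fitted to these libraries and with 2-fold changes planted in 1 group. That run cannot check calls of smaller changes, nor whether the spread is technical. SEs are the absolute log2 fold change divided by the square root of F. The members and lists were chosen with earlier results of these data known. Genes of the wider lists were named by a rule: per list and comparison, the called gene with the largest rise and fall, a mean of at least 1 CPM and libraries that did not overlap the controls. For CDKN1A, the most alike genes were sought at a mean of at least 5 CPM. BUB1 was named after its value was seen. The libraries of a group differed beyond counting noise (chi-square per degree of freedom 1.75 to 2.63), so none was counted as a duplicate. Alternatives were TMM, library totals, DESeq2 1.42.0, other filters, a replicate block and leaving out each library. A gene of the naming rule is not reported here.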

Additional observations from a re-analysis of the deposited data

How the results depend on the processing

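Of the 25 calls against the control, 17 held in every alternative run and 8 were lost in at least 1; the values of the lost calls stand beside the results, and their cause was not tested. With the inhibitor, 6 members were called, but 3 with DESeq2, and 3 to 6 when single libraries were left out, the lowest count without miRcontrol replicate 1 and without miR-92b inhibitor replicate 2. The count was 5 to 7 for the miR-3124 mimic, 5 to 6 for the miR-200b mimic and 5 to 6 for the mixture when single libraries were left out. For the departure from the sum it was 1 to 3, the lowest without miRcontrol replicate 2. A library left alone in its group is assumed to vary like the other groups.

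With the replicate number as a block, 7, 6, 6 and 6 members were called against the control and 3 departed from the sum, as without it. The numbers did not pair the libraries, since the within-group differences (10419 genes) of any pair of groups had correlations from -0.0625 up to 0.0613.

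Signs changed only for uncalled values near 0. RRM2B with the miR-200b mimic was -0.003141 by library totals, and TP53I3 in the mixture was 0.002386 with TMM and 0.006042 by library totals. When single libraries were left out, the log2 values against the control ranged from -0.04923 to 0.07088 for RRM2B and -0.08702 to 0.2359 for FAS with the miR-200b mimic, -0.01425 to 0.06743 for ZMAT3 with the inhibitor, and, in the mixture, -0.07628 to 0.06057 for TP53I3 and -0.0164 to 0.3055 for FAS. They ranged from -0.002356 to 0.2559 for GDF15 between the mimics, from -0.1873 to 0.02154 for RRM2B between the mixture and the miR-3124 mimic, and the departures from -0.01535 to 0.2245 for RRM2B and -0.2888 to 0.1928 for FDXR. A fit of only the compared groups was not run for the departure, which needs all 5 groups. With 2 libraries a group, and 4.59 to 20.6 CPM for the 5 lowest members, small changes of GDF15, TP53I3, SESN1, FDXR and FAS were the least precise.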
